A study of Drosophila melanogaster with 13 samples.

Results

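*Stt3A*, *CG4645*, *Nup153* and *hep* are genes of the male X chromosome of *Drosophila melanogaster* that carry a strong MSL2 site. They were chosen by their MSL2 peaks, which were listed in MLEΔCBD-FLAG males and had a high fold enrichment in MLEWT-FLAG males, so both facts are descriptions here and were not tested. The members are all peaks that overlap these 4 genes or lie within 20 kb of them. There are 63 such peaks of 6400 in the 6 deposited lists, and the 4 genes stand among 2704 annotated on the X chromosome.

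Chromatin from pooled whole males aged 2 to 3 days was precipitated with antibodies to MSL1, MSL2 or MSL3 and sequenced (ChIP-seq), with 2 libraries for each protein and line. The question was whether the part of the helicase MLE that contacts CLAMP, the CLAMP-binding domain (CBD), is needed for the male-specific lethal proteins to reach the X chromosome. MLEΔCBD-FLAG males were mle9/mle9 and homozygous for a transgene that makes FLAG-tagged MLE without the CBD (Ubi:mleΔCBD/Ubi:mleΔCBD). MLEWT-FLAG males were also mle9/mle9 and carried 1 copy of the intact transgene over a balancer chromosome (Ubi:mleWT/TM6). Both lines lack functional MLE of their own and make the tagged protein from a ubiquitously active promoter, and they differ in the number of transgene copies and in the balancer as well as in the CBD. By the immunoblots of the study, tagged MLE was similarly abundant in both. A preimmune serum library was made from the MLEWT-FLAG line only, and it has no peak list. There is 1 list for each protein and line. The deposited start, end, summit and −log10 p of every peak are those of the first of a pair of peak sets that were compared for reproducibility, and the second set is given beside it at the listed peaks. These sets are not labelled as replicates, so no replicate error can be given, no difference between the lines was tested, and every comparison is between lists.

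In male flies the MSL complex raises transcription of the single X chromosome. MSL2 and MSL1 form its core and settle first on high affinity sites rich in GA motifs, which the zinc finger protein CLAMP also binds, whereas MSL3, which reads methylated histones of active genes, follows the complex into the bodies of the surrounding genes. MLE unwinds the roX RNAs that are built into the complex. *Stt3A* (CG1518) encodes a catalytic subunit of oligosaccharyltransferase, which adds sugar chains to proteins in the endoplasmic reticulum. *Nup153* encodes a nucleoporin of the basket of the nuclear pore, and *hep* (hemipterous) encodes the kinase that activates the fly Jun N-terminal kinase.

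The sequences under the MSL2 summits are shown because they were not used to choose the genes and because the 4 sites differ in them. Each line below gives bases from 5′ to 3′ read from the RefSeq copy of the release 6 genome (dm6), and the capitals mark GAGCGAGA or a run of at least 4 GA units (GAGAGAGA).
*Nup153*, chrX:16608009-16608129, plus strand: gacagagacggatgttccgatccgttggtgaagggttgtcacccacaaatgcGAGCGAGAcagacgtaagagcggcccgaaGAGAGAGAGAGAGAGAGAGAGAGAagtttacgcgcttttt
*CG4645*, chrX:12910940-12911060, minus strand: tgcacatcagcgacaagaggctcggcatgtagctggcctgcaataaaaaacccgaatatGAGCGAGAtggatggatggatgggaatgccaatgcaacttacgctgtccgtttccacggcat
*hep*, chrX:13080532-13080652, plus strand: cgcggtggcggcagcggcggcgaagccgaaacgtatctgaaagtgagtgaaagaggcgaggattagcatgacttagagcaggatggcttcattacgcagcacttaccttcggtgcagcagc
*Stt3A*, chrX:21050162-21050191, plus strand: tgctcataGAGCGAGAGAGAttgccaaata

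The stretches of *Nup153*, *CG4645* and *hep* have the MSL2 summit of the MLEWT-FLAG list at base 61, and the 30 bases of *Stt3A* lie beside its summit. In *Nup153*, GAGCGAGA ended 1 bp from the summit and was followed by 12 GA units, whose nearer edge was 21 bp away. In *CG4645*, GAGCGAGA covered the summit itself and no run of 4 GA units was found within 100 bp. In *Stt3A*, GAGCGAGA lay 60 bp from the summit and overlapped a run of 4 GA units whose edge was 56 bp away. In *hep*, neither motif was found within 100 bp on either strand, and the closest stretch differed from GAGAGAGA at 2 of its letters. The nearest stretch in *CG4645* differed at 1 letter.

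Both motifs were searched on both strands within 100 bp of each summit. A run of 4 GA units was present at 2 of the 4 genes, at 65 of the 216 X-chromosome MSL2 summits of MLEWT-FLAG males (30.1%) and in 1.54% of X-chromosome windows of the same length. GAGCGAGA, which was picked after the sequences had been seen, was present at 3 of the 4 genes, at 69 of 216 summits (31.9%) and in 1.12% of windows. Of the MSL2 summits of MLEWT-FLAG males that had an overlapping MLEΔCBD-FLAG peak, 19 of 55 held the GA run (34.5%, Wilson 95% interval 23.4% to 47.7%), against 46 of 161 that had none (28.6%, interval 22.2% to 36.0%). For GAGCGAGA these shares were 18 of 55 (32.7%) and 51 of 161 (31.7%). The intervals cover the counting of peaks only, and they overlapped.

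The sites sat in different parts of the genes, and none was close to the start of its gene. *Stt3A* (FBgn0031149, X chromosome 21049885 to 21053937, minus strand) is 4053 bp long, and its MSL2 summit lay in the 3′ UTR of both transcripts, 3700 bp from the gene's start, which is 91.3% of its length. *CG4645* (FBgn0030435, 12909953 to 12912070, plus strand) is 2118 bp long, and its summit fell in an intron of 64 bp, intron 2 of 3 in the transcript with the most introns, at 49.4% of the length. In *Nup153* (FBgn0061200, 16599241 to 16610459, plus strand, 11219 bp) the summit was in intron 8 of 8, which is 1004 bp long, at 78.7% of the gene. In *hep* (FBgn0010303, 13079205 to 13090434, minus strand, 11230 bp) it was in an intron of 70 bp in 6 of 7 transcripts, at 87.6% of the gene. The *CG4645* and *hep* introns are shorter than the printed stretches, which therefore run into the flanking exons. Counted from the gene's start, 3 of the 4 summits were thus towards the end of their gene. Positions of the other X-chromosome MSL2 summits in their genes were not computed, so no preference is read from this count.

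**Figure D1:**
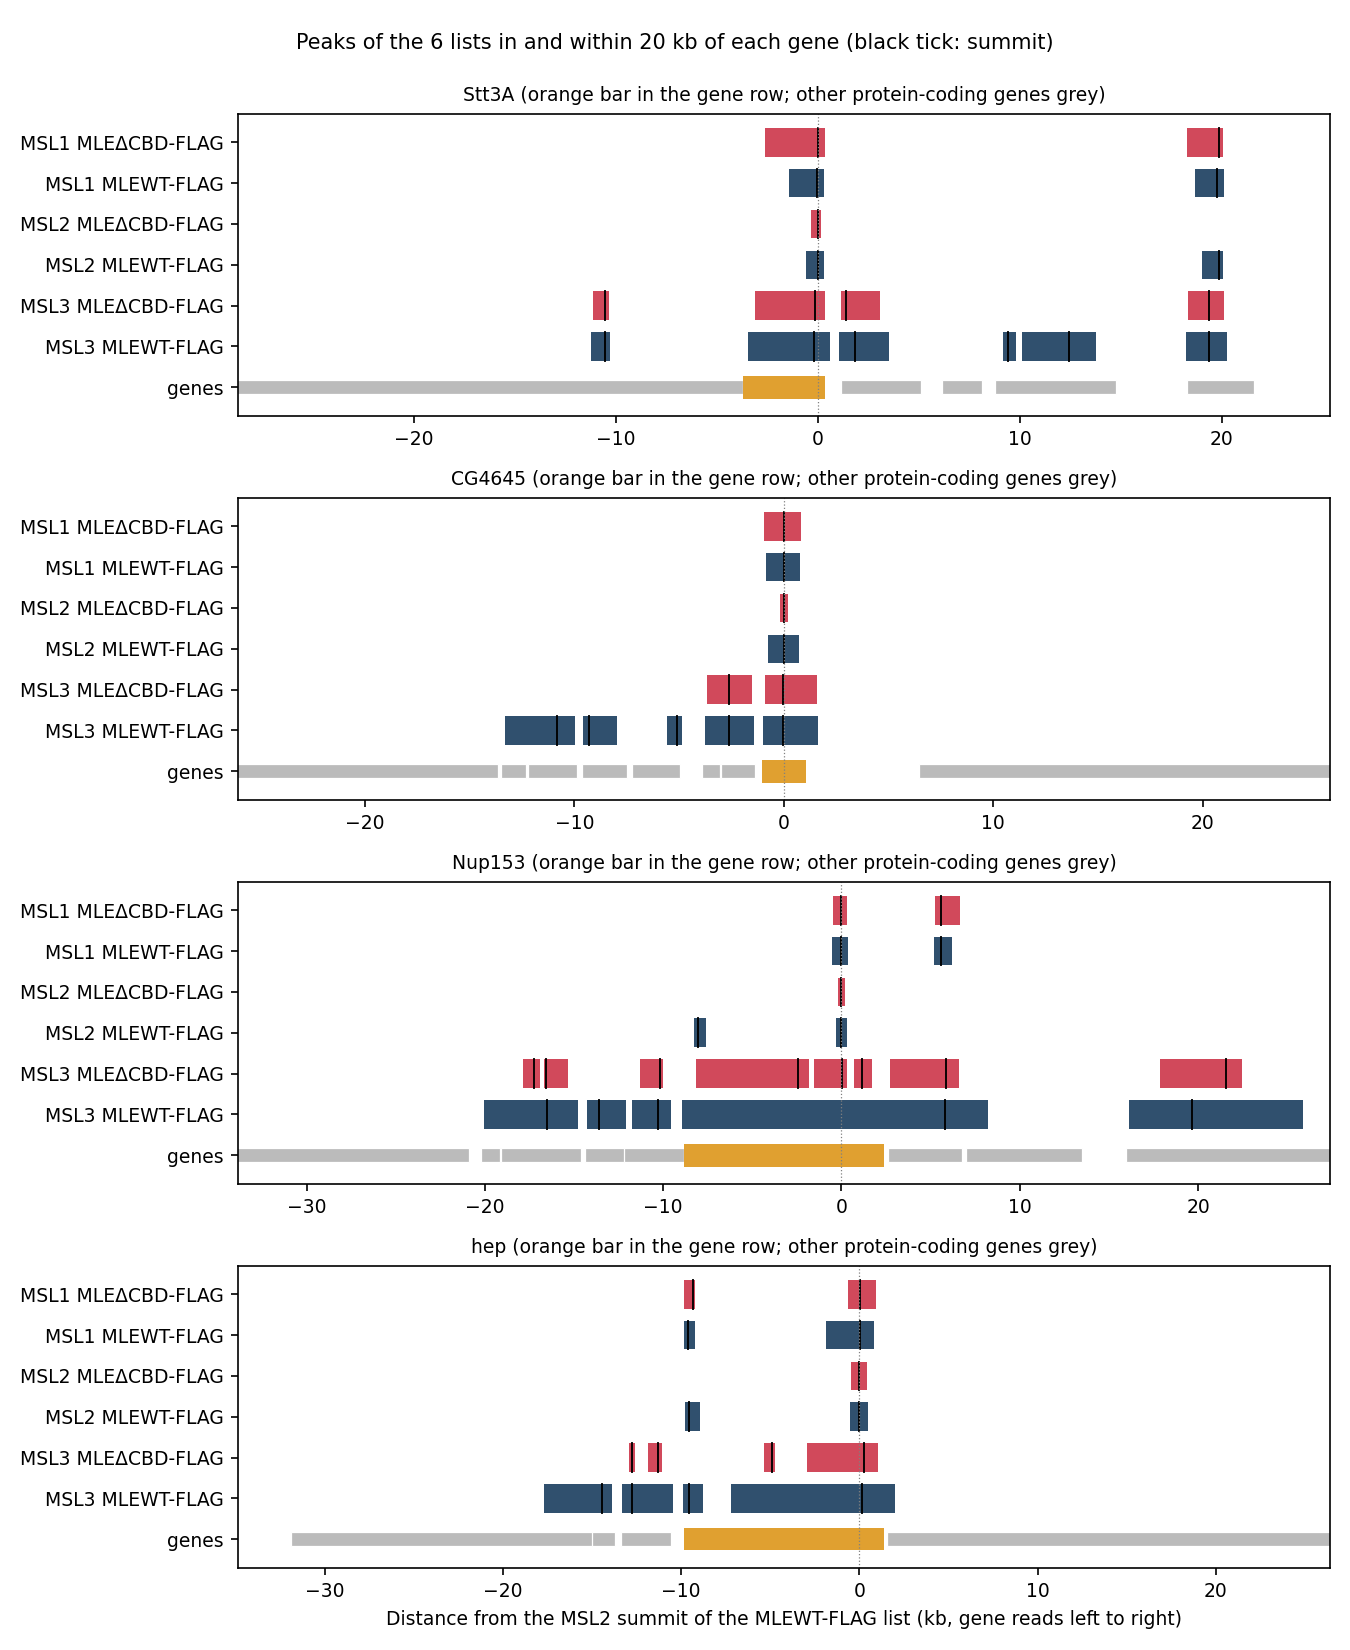
Peaks of the 6 lists around *Stt3A*, *CG4645*, *Nup153* and *hep*, drawn to scale as bars with a black tick at the summit, MLEΔCBD-FLAG (red) above MLEWT-FLAG (blue) for each protein. The horizontal axis is the distance in kb from the MSL2 summit of the MLEWT-FLAG list, with each gene reading left to right, the named gene in orange and other protein-coding genes in grey. The MSL1 and MSL2 summits at the MSL2 sites stack at 0, and weaker peaks of these proteins lie elsewhere around *Stt3A*, *Nup153* and *hep*. Over *Nup153* 4 MLEΔCBD-FLAG peaks of MSL3 lie above a MLEWT-FLAG peak of 17151 bp.

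All 4 genes were overlapped by peaks in all 6 lists. Among the 191 protein-coding X genes that hold an MSL2 summit of MLEWT-FLAG males, 50 were overlapped in all 6 lists (26.2%). MSL2 peaks in both lines chose the 4 genes, so nothing is read from this count. The deposited lists contain 187 X-chromosome peaks of MSL1 in MLEΔCBD-FLAG males and 247 in MLEWT-FLAG males, 59 and 216 of MSL2, and 687 and 1030 of MSL3. A peak of the MLEWT-FLAG list is called kept here when a MLEΔCBD-FLAG peak of the same protein overlaps it by at least 1 bp. On the X chromosome 59.5% of MSL1 peaks, 25.5% of MSL2 peaks and 40.3% of MSL3 peaks of MLEWT-FLAG males were kept. The MSL2 lists reach down to a −log10 global irreproducible discovery rate of 1.36 in MLEΔCBD-FLAG males and 1.32 in MLEWT-FLAG males, whereas the other 4 lists stop at about 2.00, so kept shares of MSL2 and of the other proteins rest on unlike thresholds. With a rate of at most 0.001 required in every list, all 4 genes still counted, but *hep* did so through another peak: its MSL2 site in MLEWT-FLAG males had a −log10 global rate of 2.98, and a weaker peak in its 5′ UTR with 3.25 took its place.

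MSL2, the male-specific ubiquitin ligase that gives the complex its sex specificity, had 1 peak in each gene in MLEΔCBD-FLAG males. At *Nup153* the fold enrichment was 7.18 in MLEΔCBD-FLAG males (rank 6 of 92 peaks) and 18.7 in MLEWT-FLAG males (rank 2 of 222). The *hep* site had 5.99 (rank 11) in MLEΔCBD-FLAG males and 17.7 (rank 3) in MLEWT-FLAG males. At *Stt3A* the values were 7.01 in MLEΔCBD-FLAG males and 16.5 in MLEWT-FLAG males, rank 7 in both lists. *CG4645* was the weakest, with 3.43 (rank 34) in MLEΔCBD-FLAG males and 8.24 (rank 33) in MLEWT-FLAG males. Ordered by fold enrichment in MLEWT-FLAG males, the 55 kept MSL2 peaks of the X chromosome began with *roX1*, *Nup153*, *hep* and *roX2*, with *Stt3A* at position 7 and *CG4645* at position 32. The order *Nup153* above *Stt3A* above *hep* above *CG4645* in the MLEΔCBD-FLAG list thus differed from the MLEWT-FLAG order in the places of *Stt3A* and *hep*.

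The pair of peak sets did not give MSL2 the same strength. At *hep* in MLEΔCBD-FLAG males, −log10 p was 107 in the first set (rank 12 by −log10 p) and 41.4 in the second (rank 21). In MLEWT-FLAG males it was 740 (rank 3) and 125 (rank 27) at *hep*. *Nup153* in MLEΔCBD-FLAG males had −log10 p of 148 and 60.1 in the first and second sets, and in MLEWT-FLAG males 798 and 327. *Stt3A* had 141 and 68.5 in MLEΔCBD-FLAG males, against 663 and 224 in MLEWT-FLAG males. *CG4645* had 34.8 and 31.6 in MLEΔCBD-FLAG males, against 221 and 82.3 in MLEWT-FLAG males. In each set, all 4 sites had the lower −log10 p in MLEΔCBD-FLAG males. Over all X-chromosome MSL2 peaks the median ratio of the first to the second set was 1.58 in MLEΔCBD-FLAG males and 1.99 in MLEWT-FLAG males, while for MSL1 and MSL3 it was 1.00 in both lines.

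**Figure D2:**
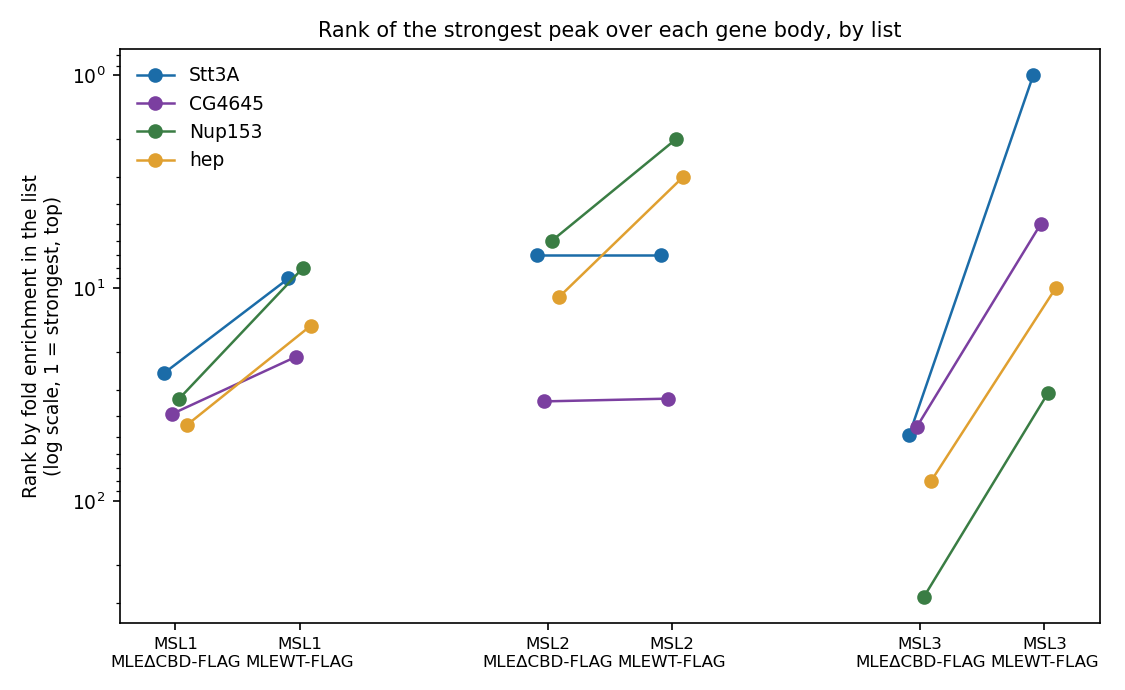
Rank by fold enrichment of the strongest peak over each gene in each list (vertical log axis, rank 1 at the top), with MLEΔCBD-FLAG left of MLEWT-FLAG for each protein and a line joining the same gene. Ranks are positions within a list, and the lists differ in length: MSL1 has 577 peaks in MLEΔCBD-FLAG and 293 in MLEWT-FLAG males, MSL2 has 92 and 222, and MSL3 has 2301 and 2915. *Nup153* has the lowest MSL3 position in both lines, and its MLEWT-FLAG MSL3 peak has its summit in the neighbouring gene *mbt*.

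MSL1, the scaffold that joins MSL2 to the other subunits, was at the same 4 sites and had higher deposited fold enrichment in the MLEΔCBD-FLAG list. *Stt3A* had 14.9 (rank 25 of 577) in MLEΔCBD-FLAG males and 10.6 (rank 9 of 293) in MLEWT-FLAG males. *Nup153* had 13.5 (rank 33) in MLEΔCBD-FLAG males and 10.7 (rank 8) in MLEWT-FLAG males. *CG4645* had 11.3 (rank 39) in MLEΔCBD-FLAG males and 7.93 (rank 21) in MLEWT-FLAG males. *hep* had 10.1 (rank 44) in MLEΔCBD-FLAG males and 8.72 (rank 15) in MLEWT-FLAG males. The deposited enrichment of every site was thus larger in MLEΔCBD-FLAG males while its position was lower, in a list that was longer and held more autosomal peaks. The peak sets did not bear this out at *Nup153*, where −log10 p was 264 in MLEΔCBD-FLAG males and 194 in MLEWT-FLAG males in the first set, but 232 and 239 in the second. Counted among X-chromosome peaks alone, the MLEΔCBD-FLAG ranks of *Stt3A*, *Nup153*, *CG4645* and *hep* were 7, 9, 12 and 16.

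The ratio of fold enrichments, MLEΔCBD-FLAG over MLEWT-FLAG, pairs the peaks over an MSL2 site in the lists. For MSL1 it was between 1.15 and 1.42 at the 4 genes (median 1.33), beside a median of 1.03 over all 147 kept X-chromosome MSL1 peaks, of which the middle 50% lay between 0.871 and 1.22. *CG4645* had a larger ratio than 135 of the 147, *Stt3A* than 132, *Nup153* than 117 and *hep* than 99. These 147 were not matched to the 4 genes in strength. Every kept X-chromosome MSL1 peak with a higher MLEWT-FLAG fold enrichment than the 4 genes had a ratio between 1.12 and 1.70. Other kept X-chromosome peaks, with MLEWT-FLAG fold enrichments between those of *CG4645* (7.93) and *Nup153* (10.7), had ratios on both sides of 1, from 0.669 to 1.37. The kept autosomal MSL1 peaks, 40 in number, had a median of 3.67. For comparison, *HERC2*, *Rip11* and *Rab35* had MSL2 sites at ranks 21, 36 and 46 in MLEWT-FLAG males, below those of *Nup153*, *hep* and *Stt3A*. They carry MSL1 in both lists (ranks 15, 11 and 79 in MLEWT-FLAG males), but no MSL2 there in the MLEΔCBD-FLAG list. Their MSL1 ratios were 0.669, 0.877 and 0.843, below those of the 4 genes. *roX1* had 1.58 and *roX2* 1.12. These genes were picked with their peaks known, including the kept MSL1 of *HERC2*, *Rip11* and *Rab35*, so the difference in MSL1 is a description.

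For MSL2 the ratio was between 0.338 (*hep*) and 0.426 (*Stt3A*) with a median of 0.401, beside 0.386 over the 55 kept X-chromosome peaks, and all 55 were below 1. For MSL3 it was 0.453 at *CG4645*, 0.397 at *Stt3A*, 0.365 at *hep* and 0.247 at *Nup153*. The *Nup153* value sets the MLEΔCBD-FLAG peak at the MSL2 site against a MLEWT-FLAG peak whose summit lay in the neighbouring gene *mbt*. With the MLEΔCBD-FLAG peak that shares most bases, the pairing used for all kept peaks, it was 0.172, and with the one over the *mbt* summit 0.299. The median over all 415 kept X-chromosome MSL3 peaks was 0.325, and 64 of them were above 1. The 4 genes thus lay inside the spread of kept peaks for MSL2 and MSL3. For MSL1 they lay in the upper part of it, as did the stronger MSL1 peaks, whereas other peaks of similar strength had ratios on both sides of 1. The number of reads behind each list is unknown here, and fold enrichment over background depends on it and on the share of reads that fall in peaks. Its part in these ratios was not tested.

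**Figure D3:**
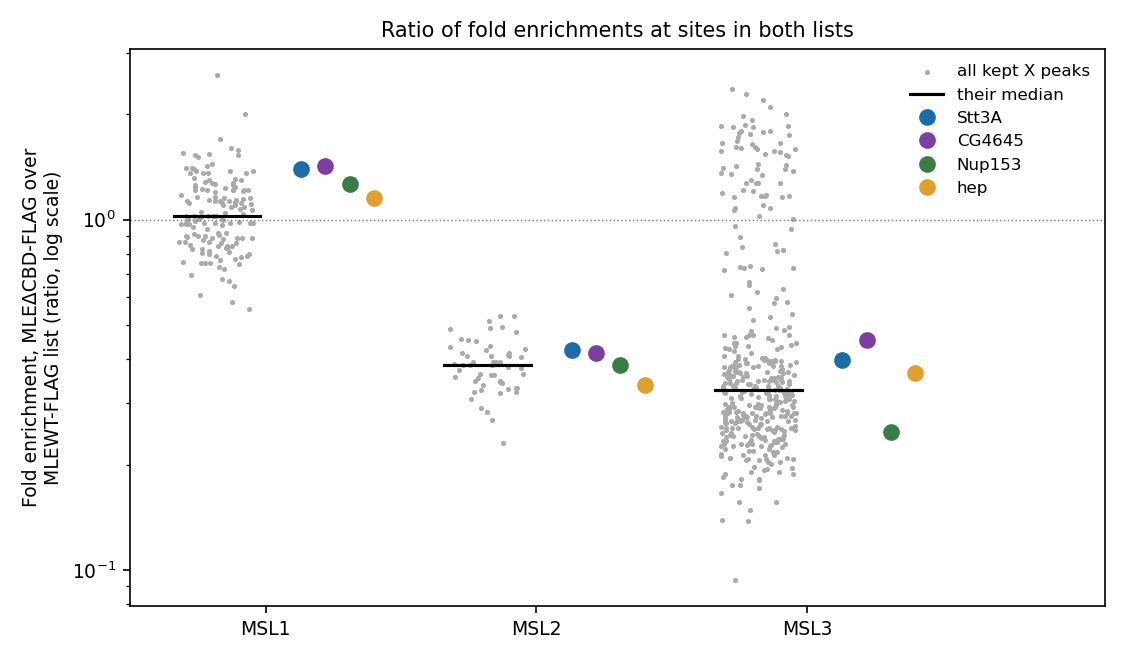
Ratio of fold enrichments, MLEΔCBD-FLAG over MLEWT-FLAG (vertical log axis), at all kept X-chromosome peaks of each protein (grey points, black bar at the median) and at *Stt3A*, *CG4645*, *Nup153* and *hep* (coloured points). For MSL1 the 4 genes lie between 1.15 and 1.42, above the median of 1.03. For MSL2 they lie close to the median of 0.386.

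MSL3, the chromodomain subunit, covered the 4 genes more widely than the other proteins. *Stt3A* had the top-ranking MSL3 peak of the MLEWT-FLAG list. Its fold enrichment was 15.7 (rank 49 of 2301) in MLEΔCBD-FLAG males and 39.6 (rank 1 of 2915) in MLEWT-FLAG males. *CG4645* had 16.5 (rank 45) in MLEΔCBD-FLAG males and 36.4 (rank 5) in MLEWT-FLAG males, although its MSL2 site was the weakest of the 4. *hep* had 12.5 (rank 80) in MLEΔCBD-FLAG males and 34.3 (rank 10) in MLEWT-FLAG males. *Nup153* had 6.64 (rank 281) in MLEΔCBD-FLAG males and 26.9 (rank 31) in MLEWT-FLAG males. These 2 values are not from the same place, since the MLEWT-FLAG peak had its summit in *mbt*. The MLEΔCBD-FLAG peak in *mbt* had 8.02 (rank 193). Among X-chromosome peaks alone, the MLEΔCBD-FLAG ranks of *CG4645*, *Stt3A*, *hep* and *Nup153* were 5, 6, 13 and 90. The order for MSL3 was thus not that for MSL2, and *Nup153*, first of the 4 for MSL2 in both lines, was last for MSL3 in both.

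Summits of MSL1 and MSL2 coincided at the MSL2 site of each gene. Over both lines and both peak sets, the 8 MSL1 and MSL2 summits spanned 45 bp in *Stt3A*, 36 bp in *hep*, 31 bp in *Nup153* and 30 bp in *CG4645*. Between the lines, the MSL2 summit moved by 8 bp in *Stt3A*, 11 bp in *CG4645*, 0 bp in *Nup153* and 21 bp in *hep*, beside a median of 10 bp over kept X-chromosome MSL2 peaks. The MSL1 summit moved by 19, 2, 2 and 7 bp in the same genes, beside a median of 26 bp. The narrow sites thus stayed in place in the MLEΔCBD-FLAG list, as did kept peaks in general.

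The distance of the MSL3 summits from these sites differed by gene. Counted along the gene from the MSL2 summit, the 4 MSL3 summits of *Stt3A* lay at −205 to −161 bp, the deposited ones in coding sequence, and those of *CG4645* at −44 to −37 bp. In *hep* they were scattered over 479 bp on both sides of the MSL2 summit. In *Nup153* the MLEΔCBD-FLAG summit was 7 bp from the MSL2 summit, whereas the MLEWT-FLAG summit was 5811 bp downstream, in a coding exon of *mbt*, which encodes a p21-activated kinase. For that reason only 3 of the 4 genes had a summit of every list inside the gene body.

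The widths at the MSL2 sites differed by protein. MSL2 peaks were narrower in MLEΔCBD-FLAG males at all 4 genes. They measured 350 bp at *Nup153* in MLEΔCBD-FLAG males and 600 bp in MLEWT-FLAG males, and 514 and 858 bp at *Stt3A* in the same lines. At *hep* they measured 893 bp in MLEΔCBD-FLAG males and 1048 bp in MLEWT-FLAG males, and at *CG4645* 404 and 1474 bp. The ratio had a median of 0.591 at the 4 genes and of 0.429 over the 55 kept X-chromosome peaks, all of which were narrower in MLEΔCBD-FLAG males. The width at *hep* and *CG4645* depended on the peak set, since the second MLEΔCBD-FLAG set gave 412 bp at *hep* and 837 bp at *CG4645*.

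MSL1 widths showed no common direction. *Nup153* had 815 bp in MLEΔCBD-FLAG males and 866 bp in MLEWT-FLAG males, and *CG4645* had 1784 and 1644 bp. *Stt3A* had 2967 bp in MLEΔCBD-FLAG males and 1726 bp in MLEWT-FLAG males, but the second sets gave 1766 and 1746 bp. *hep* had 1556 bp in MLEΔCBD-FLAG males and 2713 bp in MLEWT-FLAG males, and the second sets reversed the order with 2627 and 1320 bp. At *Stt3A* and *hep* the peak sets of 1 line thus differed about as much as the lines did.

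**Figure D4:**
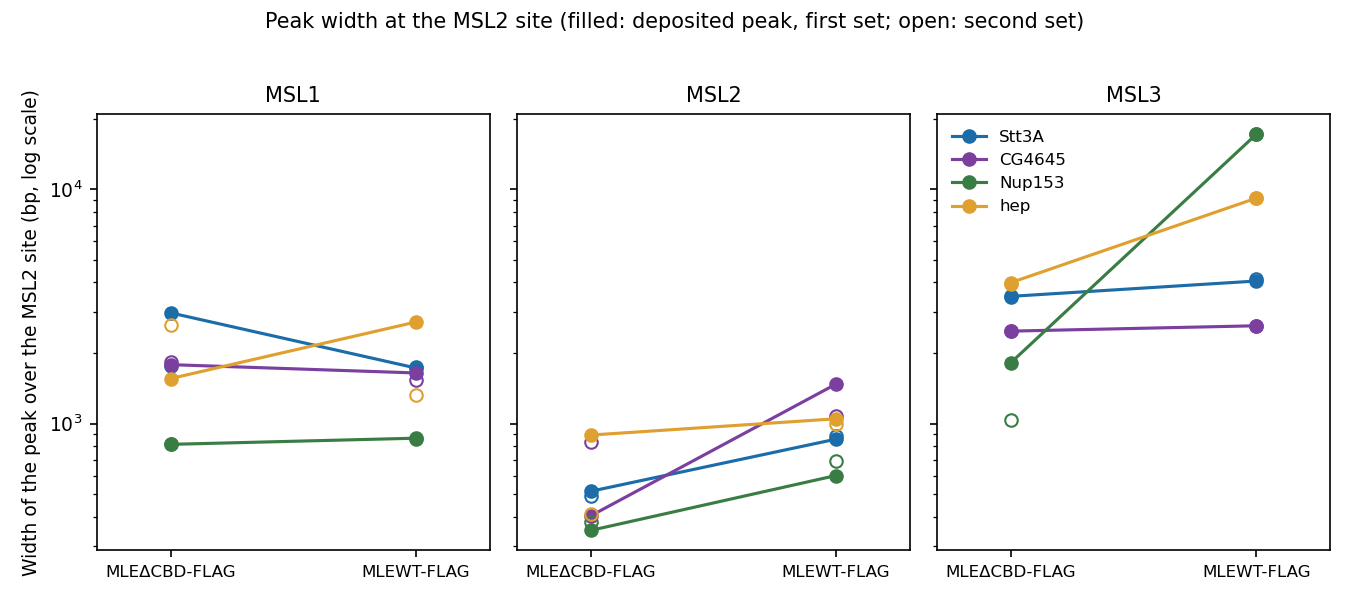
Width in bp (vertical log axis) of the peak over the MSL2 site of each gene, for MSL1, MSL2 and MSL3, with MLEΔCBD-FLAG left of MLEWT-FLAG. Filled points joined by a line are the deposited peak (first set) and open points the same peak in the second set. The MSL3 peak at *Nup153* measures 1821 bp in MLEΔCBD-FLAG males and 17151 bp in MLEWT-FLAG males.

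MSL3 domains were nearly as wide in both lines over *CG4645* and *Stt3A*, and were in pieces over *hep* and *Nup153* in MLEΔCBD-FLAG males. At *CG4645* the MSL3 peak was 2480 bp in MLEΔCBD-FLAG males and 2614 bp in MLEWT-FLAG males, and at *Stt3A* 3491 and 4058 bp. At *hep* 2 MLEΔCBD-FLAG peaks covered 50.8% of the MLEWT-FLAG peak, which was 9160 bp wide. At *Nup153* 4 MLEΔCBD-FLAG peaks of 6361, 1821, 983 and 3892 bp covered 76.1% of a MLEWT-FLAG peak of 17151 bp, which also took in *mbt*. MLEΔCBD-FLAG peaks covered 86.0% of the *Stt3A* peak and 94.9% of the *CG4645* peak. Over the 415 kept X-chromosome MSL3 peaks the median covered share was 59.0%, 155 were overlapped by 2 or more MLEΔCBD-FLAG peaks, and 25 of them (6.02%) were overlapped by 4 or more MLEΔCBD-FLAG peaks. Of these 415, only 10 were as wide as the *Nup153* peak or wider, that peak included.

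The share of each gene body under peaks counts all peaks of a list over the gene, not only the peak at the MSL2 site. MSL3 covered 93.0% of *CG4645* in MLEΔCBD-FLAG males and 97.6% in MLEWT-FLAG males, and 85.6% and 94.4% of *Stt3A*. It covered 81.7% of *Nup153* in MLEΔCBD-FLAG males and all of it in MLEWT-FLAG males. The share of *hep* was 41.4% in MLEΔCBD-FLAG males and 86.1% in MLEWT-FLAG males. Among the other 187 protein-coding X genes with an MSL2 summit of MLEWT-FLAG males, the median MSL3 share was 54.9% in MLEΔCBD-FLAG males and 91.7% in MLEWT-FLAG males. *hep* was thus below that median in both lines and the other 3 genes above it.

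MSL2 covered 19.1% of *CG4645* in MLEΔCBD-FLAG males and 69.6% in MLEWT-FLAG males, 12.7% and 21.2% of *Stt3A*, 7.95% and 17.1% of *hep*, and 3.12% and 11.5% of *Nup153*. The MLEWT-FLAG shares of *hep* and *Nup153* include a second, weaker MSL2 peak of 877 and 689 bp near the gene start. Those peaks were not in the MLEΔCBD-FLAG list, so these differences are not from narrowing of the site alone. MSL1 covered 84.2% of *CG4645* in MLEΔCBD-FLAG males and 77.6% in MLEWT-FLAG males, and 73.2% and 42.6% of *Stt3A*. In the long genes its shares were 19.2% and 29.5% for *hep* and 7.26% and 7.72% for *Nup153*. All these shares use first-set widths. In the second sets the MSL1 peaks at the site measured 1766 and 1746 bp at *Stt3A*, and 2627 and 1320 bp at *hep*. The MSL2 peak of *CG4645* in MLEΔCBD-FLAG males measured 837 bp there, in place of 404 bp. Among the other 187 genes the medians were 7.08% and 20.1% for MSL1 in the same order of lines, and 0% and 11.2% for MSL2. Only 47 of these 187 had an MSL2 peak in MLEΔCBD-FLAG males, whereas the named genes were chosen by having one. Nothing is therefore read from the MSL2 difference in that line. The 187 genes had a median length of 6916 bp and were not matched in length to *CG4645* (2118 bp), *Stt3A* (4053 bp), *Nup153* (11219 bp) or *hep* (11230 bp). Shares of all proteins depend on gene length.

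**Figure D5:**
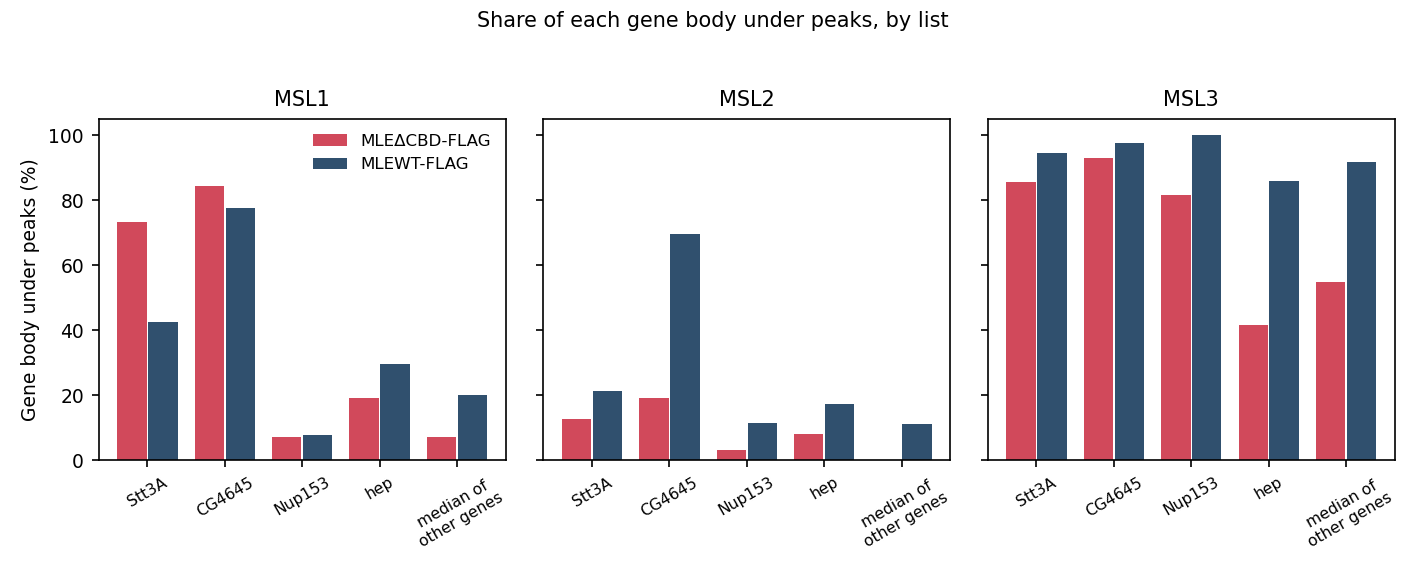
Share of the gene body under peaks (percent, bars from 0) for *Stt3A*, *CG4645*, *Nup153*, *hep* and the median of the other 187 protein-coding X genes with an MSL2 summit of MLEWT-FLAG males, with MLEΔCBD-FLAG (red) left of MLEWT-FLAG (blue). MSL3 covers over 80% of *Stt3A*, *CG4645* and *Nup153* in both lines and 41.4% of *hep* in MLEΔCBD-FLAG males. The named genes were chosen by MSL2 peaks in both lines, so their MSL2 bars in MLEΔCBD-FLAG males are not compared with the median. The other genes were not matched to them in length. Shares count all deposited peaks over a gene, with the widths of the first set.

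*Nup153* and *hep* each held a second, weaker MSL2 peak near their start in MLEWT-FLAG males, and neither was in the MLEΔCBD-FLAG list. At *hep* it lay in the 5′ UTR (chrX:13089524-13090400), was 877 bp wide and had a fold enrichment of 3.78 (rank 135). An MSL3 peak of 1125 bp there (fold enrichment 4.81, rank 801) was also listed in MLEWT-FLAG males only. MSL1 was listed there in both lines, with 606 bp and a fold enrichment of 2.78 in MLEΔCBD-FLAG males, against 615 bp and 2.85 in MLEWT-FLAG males. At *Nup153* the second peak was in the 5′ UTR (chrX:16599785-16600473), 689 bp wide, with a fold enrichment of 2.06 (rank 213 of 222). Both MSL2 peaks at the starts of these genes were thus below the X-chromosome median fold enrichment of 4.32 in the MLEWT-FLAG list. Only that of *Nup153* was near the end of the list.

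Around the 4 genes the lists held 29 peaks in MLEΔCBD-FLAG males and 34 in MLEWT-FLAG males, of which 13 and 18 lay outside the gene bodies. All 29 MLEΔCBD-FLAG peaks overlapped a MLEWT-FLAG peak of the same protein, as did 92.0% of the 933 MLEΔCBD-FLAG peaks of the X chromosome. Of the MLEWT-FLAG peaks, 11 had no MLEΔCBD-FLAG partner, and these were 3 of MSL2 and 8 of MSL3. All 7 MSL1 peaks were kept, beside 59.5% over the X chromosome, as were 12 of 20 MSL3 peaks, beside 40.3%. With 7 and 20 peaks in 4 clusters, these counts describe the clusters only.

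*CG1529*, with a site in a coding exon, carried the only MSL2 peak outside the 4 gene bodies, 18675 bp from *Stt3A*. It had no MSL2 peak in the MLEΔCBD-FLAG list, against a peak of 1022 bp with a fold enrichment of 5.33 (rank 82) in MLEWT-FLAG males. MSL1 remained at *CG1529* with a fold enrichment of 4.27 (rank 182) in MLEΔCBD-FLAG males, against 4.36 (rank 90) in MLEWT-FLAG males. MSL3 also remained, with 10.5 (rank 110) in MLEΔCBD-FLAG males and 28.9 (rank 20) in MLEWT-FLAG males. *mbt*, next to *Nup153*, had an MSL1 peak with a fold enrichment of 3.13 in MLEΔCBD-FLAG males and 3.21 in MLEWT-FLAG males, and no MSL2 peak in either line.

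The other neighbours with peaks carried MSL3 only. The 12 kept MSL3 peaks in and around the 4 genes ranked 1 to 637 in the MLEWT-FLAG list, with fold enrichments of 5.66 to 39.6. The 8 that were not kept ranked 701 to 1184, with fold enrichments of 3.58 to 5.29, so the groups did not overlap. Over the X chromosome they did, with ranks of 1 to 2569 for the 415 kept MSL3 peaks and 250 to 2533 for the 615 that were not kept. Of the 459 X-chromosome MSL3 peaks at ranks 1 to 637, 336 were kept (73.2%). Of the 224 at ranks 701 to 1184, 30 were kept (13.4%), beside 40.3% of all. MSL3 was kept at *Cbs* and *bves* near *Stt3A*, at *Brms1* near *CG4645*, at *SMC3* and *CG9784* near *Nup153*, and at *lic* near *hep*. The *bves* peak had the higher fold enrichment in MLEΔCBD-FLAG males, 6.81 (rank 259) against 5.66 (rank 637). Such a ratio above 1 was found at 64 of the 415 kept X-chromosome MSL3 peaks. At *Cbs*, *Brms1*, *SMC3*, *CG9784* and *lic* the MLEΔCBD-FLAG peaks had at most 4.53, against 6.34 to 11.7 in MLEWT-FLAG males. *SMC3* encodes a cohesin subunit and *lic* a kinase that activates p38. MSL3 was listed in MLEWT-FLAG males only at *Ntf-2*, *CG4404*, *Coq8*, *Flad1*, *Ubc7* and *CG2200*. Near *CG4645*, 3 of the 4 neighbouring MSL3 peaks were lost, and the farthest was 8931 bp away. Their fold enrichments in MLEWT-FLAG males were 3.97 to 4.95, against 11.7 for the *Brms1* peak that was kept.

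Genes with related functions were looked up in lists of oligosaccharyltransferase subunits, nucleoporins and members of Jun N-terminal kinase signalling. These lists contain 7, 24 and 15 annotated genes, with 2, 4 and 4 on the X chromosome. In MLEΔCBD-FLAG males the only genes of these lists with an MSL2 peak were *Stt3A*, *Nup153* and *hep*. These genes were chosen by such peaks and the lists were picked to match them, so nothing is read from this count. In MLEWT-FLAG males *Nup205*, a scaffold nucleoporin, and *Tak1*, a kinase upstream of *hep*, also had one, at ranks 166 and 181. Both also had MSL1 in MLEWT-FLAG males only, at ranks 212 and 188. The autosomal genes *Nup98-96* and *msn*, a kinase gene, had MSL1 in MLEΔCBD-FLAG males only, at ranks 190 and 245. For comparison, 2.60% of 2196 protein-coding X genes were overlapped by MSL2 in MLEΔCBD-FLAG males and 10.2% in MLEWT-FLAG males. MSL3 was at all 4 X-linked nucleoporin genes and at 3 of 4 X-linked genes of Jun N-terminal kinase signalling in both lines, *Nup153* and *hep* included. Of the 2 X-linked oligosaccharyltransferase genes it was at 1 in MLEΔCBD-FLAG males and at 2 in MLEWT-FLAG males, beside 26.6% of X genes in MLEΔCBD-FLAG males and 56.1% in MLEWT-FLAG males.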

How the data were processed

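Paired-end reads were trimmed by the authors (cutadapt) and aligned to the dm6 genome (Bowtie2). Their peaks came from MACS2 and had to pass the irreproducible discovery rate (IDR) procedure, for which thresholds of 0.05 and 0.01 are named. Tool versions were not given in the sources used here. Each of the 6 deposited lists has 20 columns. Fold enrichment is a ratio over background, as deposited by the authors, and the set it comes from is not stated. The −log10 p, q and IDR values and the scaled IDR score are also as deposited, and the score was not analysed. Positions are counted from 1. No column belonged to an unmapped sample (0 such columns).

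Peaks were assigned to gene bodies with 20 kb on each side, using Ensembl release 115 of BDGP 6.54, and ranked within a list by fold enrichment. Kept peaks overlapped by at least 1 bp. Shares have Wilson 95% intervals. Ratios pair the peak over a site with its counterpart in the other line. The genes, the gene lists and the motifs were chosen with earlier results of these data known. Named genes were the 4 chosen genes, neighbours that hold a summit, *roX1*, *roX2*, *HERC2*, *Rip11*, *Rab35*, and genes of the function lists with MSL1 or MSL2. Some listed symbols had no match in the annotation. Overlap, coverage and motif searches were tested on simulated data. Figures were drawn with matplotlib 3.10.9, and values were computed in python 3.11.15 with pandas 2.3.3 and numpy 2.4.6. The preimmune library and coverage tracks were not used here, and a neighbouring gene is not reported here.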

Additional observations from a re-analysis of the deposited data

How the results depend on the processing

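No paired analysis was possible because the lists carry no replicate columns, and for the same reason no replicate could be left out. All 4 genes had peaks in the 6 lists with a −log10 q of at least 3 or a global IDR of at most 0.01 or 0.001, at 0.001 through another MSL2 peak in *hep*, and 3 of 4 did when every summit had to lie in the gene body. The kept share of X-chromosome MSL3 peaks was 32.6% when summits had to lie within 200 bp, in place of 40.3%. The median MSL2 width ratio of the 4 genes was 0.369 with widths summed over the gene body, in place of 0.591, since the lost second peaks of *Nup153* and *hep* then count. The median MSL1 coverage in MLEΔCBD-FLAG males was 29.8% with 1 kb added on each side of the genes, in place of 46.2%, since the added sequence lengthens the genes. A GA run was found at 1 of the 4 summits within 50 bp, at 1 with 5 units and, with up to 2 mismatches, a setting chosen after seeing the data, at 4, in place of 2. With up to 2 mismatches 61.0% of X-chromosome windows also matched. The single width of MSL1 at *hep* changed direction in the second set. Of the alternatives for counts, shares and medians, 45 left the value close to that reported and 6, given above, moved it. For ranks of single genes, 39 did and 9 moved it. Of these 9, 8 count X-chromosome peaks alone, and the ninth puts *Stt3A* at rank 2 for MSL3 in MLEWT-FLAG males by −log10 p.

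The lists limit every comparison: there is 1 per protein and line, the read depth is unknown here, the pair of peak sets is not labelled, and how far below its threshold a missing site lies is not known. The MSL2 lists use a looser reproducibility threshold than the others. Transgene copies and the balancer differ between the lines together with the CBD, and these cannot be told apart.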
